A study of Rattus norvegicus with 12 samples.

Results

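The cytosolic ribosomal protein genes encode the proteins of the 60S-type large subunit (Rpl genes) and the 40S-type small subunit (Rps genes) of the ribosome. They were followed in bulk RNA-seq of primary rat oligodendrocyte precursor cells (OPCs), the glial progenitors that give rise to myelinating oligodendrocytes. Members were chosen by symbol, as rows named Rpl or Rps followed by a number, with an optional a, x or l or an l and a digit, or named Rplp0, Rplp1, Rplp2 or Rpsa. Rows with a -ps suffix, which marks pseudogenes, were left out. The name rule matched 92 rows, and for the 6 symbols with a pair of rows (Rpl21, Rpl22, Rpl30, Rpl35a, Rps13 and Rps6) the row kept was chosen by its higher total count over the 12 libraries. This left 86 genes of the 30562 in the table, 50 of the large and 36 of the small subunit. Of these, 70 are proteins of the standard ribosome and 16 are named as paralogues by a final l or l and digit. Another 7 ribosomal proteins, encoded by Rpl7, Rpl27a, Rpl36, Rpl37a, Rpl41, Rps18 and Rps26, had no row of that symbol and were not analysed here.

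The study asked how mild hypoxic preconditioning changes cultured OPCs. Mild-hypo-OPCs (6 libraries) were kept at an FiO2 of 5%, for 6 hours by the sample labels and for 6 days by the methods, and standard OPCs (6 libraries) were kept in room air. All cells were wild type and came from newborn Sprague-Dawley rat cortex, by shaking OPCs off mixed glial cultures and growing them with FGF-2 and PDGF-AA. The study describes 3 biological replicates per group for this experiment, whereas 6 libraries per group were analysed here, and the sources used here do not say which libraries share a culture. The n of 6 therefore counts libraries, p-values and SDs measure the spread between these libraries, which may in part be technical, and the p-values are too small if libraries share a culture.

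Ribosomes are built in the nucleolus from ribosomal RNA and about equal numbers of each ribosomal protein, and the amount a cell makes follows growth and nutrient signals, chiefly through mTORC1. Most ribosomal protein mRNAs start with a 5′ terminal oligopyrimidine (TOP) tract, through which mTORC1 and LARP1 set their translation and stability. In the oligodendrocyte lineage, mTOR signalling and protein synthesis accompany growth and the onset of myelination.

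Each mild-hypo-OPC library held between 4111669 and 9022324 counts, and each standard OPC library between 1356079 and 2797513, so depth differed together with the condition and their effects cannot be told apart by design. The share of counts in ribosomal RNA rows was 17.4 to 25.2% under mild hypoxia against 23.9 to 38.4% in room air. Oligodendrocyte-lineage identity was checked on marker genes. Pdgfra, Cspg4, Sox10, Olig1, Olig2 and Ptprz1 were detected in every library, and 0 of these 6 OPC markers were called in edgeR's quasi-likelihood test. Of 7 oligodendrocyte markers, 4 were called higher, where 17.0% of all genes tested were called lower and 7.00% higher. The summed level of all 7 was 12413 to 13894 CPM (counts scaled to library size) in mild-hypo-OPCs, against 8535 to 12312 CPM in standard OPCs. Mbp, the highest of them at a mean of 7132 and 5851 CPM, was not called (edgeR adjusted p = 0.0555). The summed level of 10 microglia markers was 63.7 to 94.1 CPM in mild-hypo-OPCs and 35.9 to 68.4 CPM in standard OPCs, and of the 6 tested, 3 were called higher and 1 lower. Of 8 endothelial and mesenchymal markers, 7 were at or near 0, and Cldn5 had no row of that symbol. The summed level of 8 astrocyte markers was 823 to 956 CPM in mild-hypo-OPCs and 758 to 860 CPM in standard OPCs, and that of 7 neuron markers was 353 to 410 CPM and 261 to 336 CPM. Of those tested, 2 of 7 astrocyte and 1 of 5 neuron markers were called higher, and 0 lower. The part of these markers in the results below was not tested. In bulk libraries, fewer cells of a type and less RNA per cell cannot be told apart.

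Ribosomal protein transcripts were lower in mild-hypo-OPCs across both subunits. Of the 86 members, 77 passed the filter on low counts (a CPM above 10 in at least 1 library), and each of these 77 also passed it in either group taken alone. All 77 were called lower and 0 higher in mild-hypo-OPCs (edgeR's quasi-likelihood test on counts scaled by trimmed mean of M values, TMM, Benjamini-Hochberg adjusted p under 0.05 over all genes tested), with adjusted p from 8.54e-05 to 0.0177. Over the 8938 genes tested, 17.0% were called lower and 7.00% higher. The 77 log2 fold changes of mild-hypo-OPCs over standard OPCs ran from -1.74 to -0.30 with a median of -0.95, a level 1.93-fold lower, while the median over all genes tested was -0.0031. In 46 of the 77, every mild-hypo-OPC library lay below every standard OPC library, against 5.40% of all genes tested. With the log2 total count of each library added as a covariate, which correlated at 0.897 with the condition over these 12 libraries, 0 members were called in either direction, 0 had an unadjusted p under 0.05, and the median was -0.04. In this fit, 43 of all 8938 genes tested were called lower and 0 higher. An unadjusted p under 0.05 was found for 488 lower and 217 higher genes. With libraries scaled by total count alone, the median over all genes moved to 0.43 and that of the members to -0.50, with 61 of the 77 called lower. Under this scaling, 405 of all 8938 genes tested were called lower and 5515 higher.

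**Figure D1:**
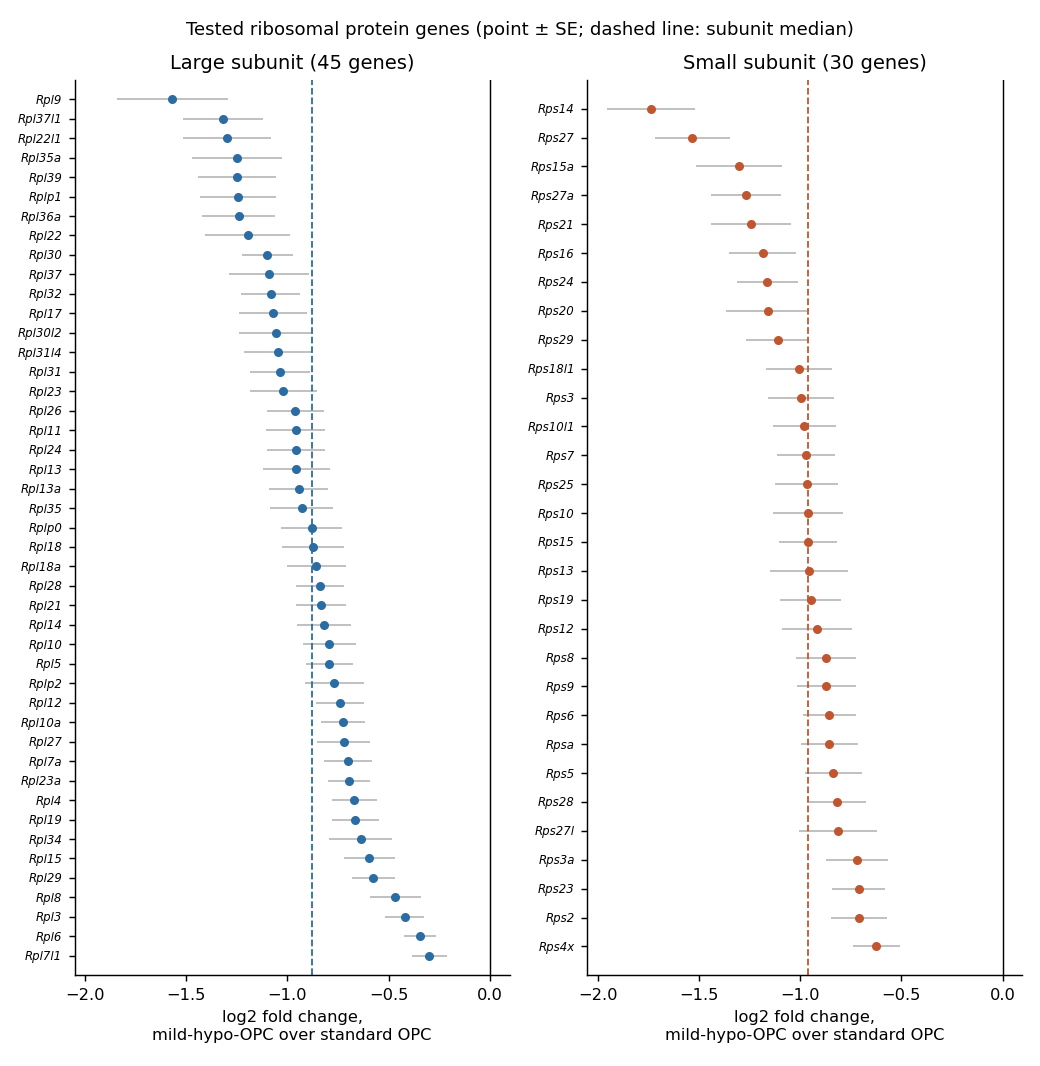
Log2 fold change (mild-hypo-OPC over standard OPC, horizontal axis) of the 45 large-subunit genes tested and 30 of the 32 small-subunit genes tested, each point with its standard error, ordered by value. All points lie below 0, the dashed subunit medians are at -0.88 and -0.96, and the range runs from -1.74 for Rps14 to -0.30 for Rpl7l1.

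The libraries themselves were not even within standard OPCs. Summed over the 86 members, the TMM-scaled level was 17719 to 25019 CPM in mild-hypo-OPCs (median 21754) and 26740 to 49923 CPM in standard OPCs (median 42787), so the groups did not overlap on this scale. In standard OPCs, replicates 1 and 2 stood at 26740 and 28058 CPM and replicates 3 to 6 at 40402, 45172, 49923 and 48802 CPM. Replicates 1 and 2 were also the deepest of the 6 standard OPC libraries, at 2797513 and 2295080 counts, and the deepest library of all, replicate 1 of mild-hypo-OPCs with 9022324 counts, had the lowest summed level. As an unscaled share of all counts, the members took 1.88 to 2.88% of each mild-hypo-OPC library and 2.31 to 4.50% of each standard OPC library. These shares overlapped, since standard OPC replicates 1 and 2, at 2.50 and 2.31%, lay within the mild-hypo-OPC range. As a share of counts outside ribosomal RNA the values were 2.52 to 3.52% and 3.28 to 6.08%.

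**Figure D2:**
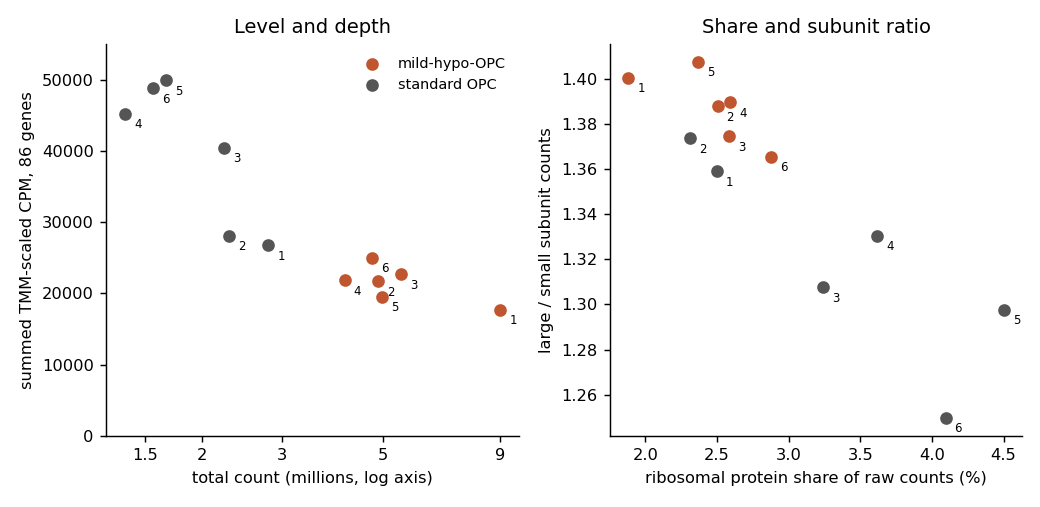
Left, summed TMM-scaled CPM of the 86 genes (vertical axis) against the total count (logarithmic axis), and right, the ratio of large- to small-subunit counts against the percentage of raw counts in ribosomal protein genes, with 1 point per library and the replicate number beside it. Standard OPC replicates 1 and 2 lie nearest to the mild-hypo-OPC libraries in both panels.

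Both subunits were lower. The 45 large-subunit genes tested had a median log2 fold change of -0.88 (from -1.57 to -0.30) and the 32 small-subunit genes -0.96 (from -1.74 to -0.62). With the log2 total count as a covariate this order turned, with medians of -0.05 for the large and -0.02 for the small subunit and no gene of either called. The ratio of large- to small-subunit counts within a library, which needs no scaling factor, was 1.37 to 1.41 under mild hypoxia and 1.25 to 1.37 in room air, with the highest standard OPC value just inside the mild-hypo-OPC range. On the log2 scale the ratio was 0.472 ± 0.016 (SD, n = 6) against 0.399 ± 0.049 (SD, n = 6), a difference of 0.07 (exact permutation test over libraries, two-sided p = 0.00433, adjusted over 7 ratios to p = 0.0152, with 0.00216 the smallest p it can give). The standard OPC libraries nearest to the mild-hypo-OPC range were again replicates 1 and 2, at 1.36 and 1.37, which are also the deepest of that group, and the part of depth in this ratio was not tested.

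Rps14, a protein of the small-subunit platform whose loss on one allele underlies the anaemia of the human 5q- syndrome, had the lowest log2 fold change among the members. Its level was 118 to 183 CPM in mild-hypo-OPCs (median 162) and 227 to 671 CPM in standard OPCs (median 620). The groups did not overlap, and standard OPC replicates 1 and 2, at 227 and 295 CPM, were well below the other four, which lay between 612 and 671 CPM. The log2 fold change was -1.74 ± 0.22 (SE, edgeR's quasi-likelihood test, adjusted p = 0.000105).

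Rps27, a zinc-finger protein of the small subunit, showed the same arrangement of libraries. It was measured at 121 to 181 CPM in mild-hypo-OPCs (median 161) and 255 to 600 CPM in standard OPCs (median 509), with a log2 fold change of -1.53 ± 0.19 (SE, edgeR adjusted p = 9.60e-05). Rps15a and Rps27a, the latter made as a fusion with ubiquitin, were also among the lowest of the small subunit, with log2 fold changes of -1.30 and -1.27.

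The small-subunit members that moved least were Rps4x (-0.62), Rps2 (-0.71), Rps23 (-0.71) and Rps3a (-0.72). Rps2 lies at the channel where mRNA enters, and Rps23 sits at the decoding centre. Each of these was still called lower, with edgeR adjusted p from 0.000725 to 0.00226. Rpsa, which lies at the mRNA exit and is also known as the laminin receptor precursor, was at 886 to 1313 CPM in mild-hypo-OPCs (median 1104) and 1386 to 2505 CPM in standard OPCs (median 2061). Its libraries did not overlap, and its log2 fold change was -0.86 ± 0.14 (SE, edgeR adjusted p = 0.000323).

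In the large subunit, Rpl9, a protein near the base of the stalk, had the lowest value at -1.57 ± 0.27 (SE, edgeR adjusted p = 0.000483). It rested on few counts, 61 to 136 per standard OPC library, and on 12.1 to 28.4 CPM in mild-hypo-OPCs (median 23.1) against 23.3 to 97.7 CPM in standard OPCs (median 77.9). Standard OPC replicate 1 lay inside the mild-hypo-OPC range. Rpl37l1 (-1.32), Rpl22l1 (-1.30), Rpl35a (-1.25) and Rpl39 (-1.25), a small protein of the tunnel exit, followed.

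At the other end of the large subunit stood Rpl7l1, Rpl6, Rpl3, Rpl8 and Rpl29. Rpl3 and Rpl8 lie close to the peptidyl transferase centre, where peptide bonds form. Rpl3 was at 324 to 388 CPM in mild-hypo-OPCs (median 355) and 393 to 598 CPM in standard OPCs (median 473), and Rpl6 at 313 to 348 CPM (median 341) and 377 to 492 CPM (median 417). In both genes the groups were separate but close. Their log2 fold changes were -0.42 ± 0.10 and -0.35 ± 0.08 (SE, edgeR adjusted p = 0.00366 and 0.00361). Rpl8 was at -0.47 and Rpl29 at -0.58, and in both the libraries of the groups overlapped. Scaled by total count alone, Rpl3 and Rpl6 turned to 0.02 and 0.09, and Rpl7l1 to 0.14, none of them called.

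**Figure D3:**
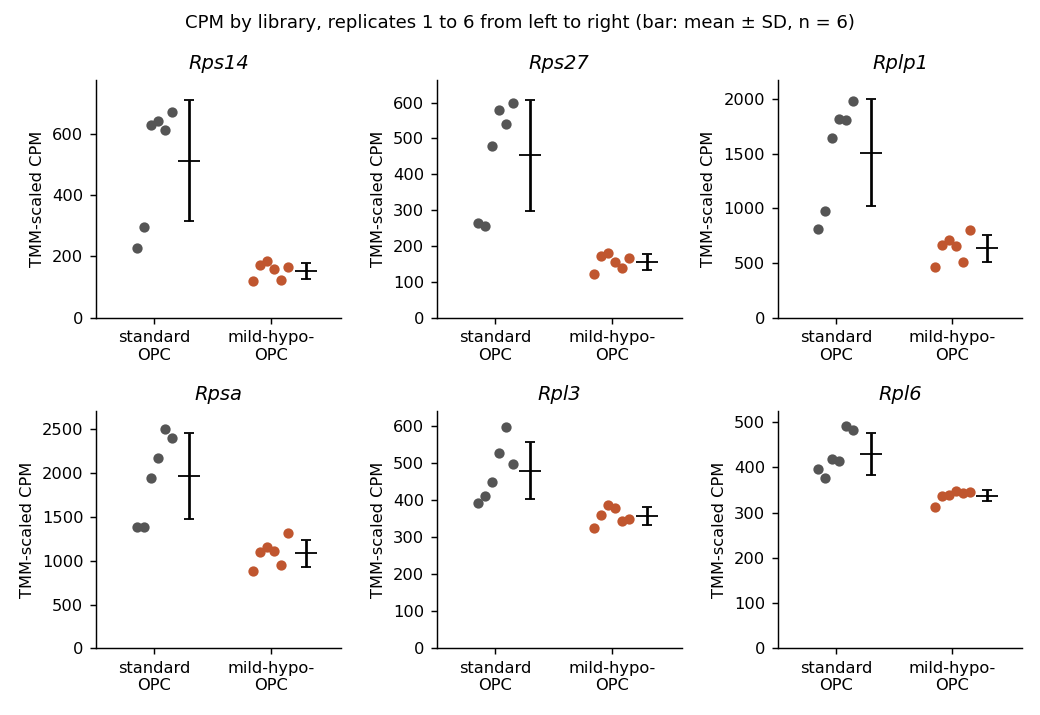
TMM-scaled CPM (vertical axes, from 0) of 6 ribosomal protein genes in the 6 standard OPC and 6 mild-hypo-OPC libraries, with points for replicates 1 to 6 from left to right and a bar for the mean ± SD. In Rps14, Rps27 and Rplp1 the first pair of standard OPC points lies well below the other four, while in Rpl3 and Rpl6 the groups are separate but close.

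Members from either end of the order were also set against the median member of the same library, a measure that does not depend on library scaling. They were chosen by their fold changes, so these values describe the libraries and test nothing. On this log2 scale, Rps14 lay at -0.79 to -0.41 in the mild-hypo-OPC libraries and -0.30 to 0.47 in the standard OPC libraries. Rps27 lay at -0.76 to -0.42 and -0.27 to 0.19. Rps2 lay at 2.36 to 2.41 and 1.98 to 2.32, so its level relative to the median member was higher in mild-hypo-OPCs although its CPM was lower. Rpl6 overlapped between groups, at 0.30 to 0.72 against -0.29 to 0.51. Most members tested overlapped between groups on this scale, among them Rpl9 and Rpl7l1.

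The stalk of the large subunit recruits elongation factors and consists of the acidic proteins Rplp1 and Rplp2 on Rplp0, with Rpl12 at its base. All 4 were called lower. Rplp1 was at 466 to 800 CPM in mild-hypo-OPCs (median 661) and 811 to 1984 CPM in standard OPCs (median 1722), with no overlap and a log2 fold change of -1.24 ± 0.19 (SE, edgeR adjusted p = 0.000210). Rplp0 (-0.88), Rplp2 (-0.77) and Rpl12 (-0.74) moved less, and Rplp2 overlapped between groups. Rpl5 and Rpl11, which carry 5S ribosomal RNA and bind the p53 ligase Mdm2 when ribosome assembly fails, were at -0.79 and -0.96, with edgeR adjusted p of 0.000184 and 0.000212. Of the 10 genes tested in a list of p53 targets and partners of this pathway, 3 were called lower, 1 higher and 6 not called, beside 17.0% lower and 7.00% higher over all genes tested. The 3 called genes with the largest change were the pro-apoptotic Bax (-0.90), Mdm2 (-0.33) and Zmat3 (0.30).

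Other structural groups fell in a similar range. The median was -0.998 over 8 proteins around the exit of the nascent peptide tunnel, -0.92 over 4 at the mRNA entry, -0.84 over 5 tested at the mRNA exit and platform, and -0.97 over 14 tested of the small-subunit head. Each of these genes was called lower. Ribosomal proteins whose symbols the name rule does not match were tested too. Fau, a ubiquitin-like fusion that yields a small-subunit protein, was called lower at -0.97, and Rack1, a signalling scaffold on the small-subunit head, was called lower at -0.57, with edgeR adjusted p of 0.000143 and 0.00178.

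Paralogues are copies that can replace a standard ribosomal protein or have taken other roles. Of the 16 members named in this way, 8 passed the filter, and their log2 fold changes ran from -1.32 to -0.30. Rps27l, which p53 induces, was at 14.9 to 26.1 CPM in mild-hypo-OPCs (median 23.1) and 20.6 to 50.6 CPM in standard OPCs (median 40.8). The groups overlapped, and its log2 fold change of -0.81 ± 0.19 (SE, edgeR adjusted p = 0.00492) was smaller in size than that of Rps27. The log2 ratio of Rps27l to Rps27 counts was -2.86 ± 0.19 (SD, n = 6) in mild-hypo-OPCs and -3.52 ± 0.33 (SD, n = 6) in standard OPCs, a difference of 0.67 (exact permutation test, two-sided p = 0.00433, adjusted over 7 ratios to p = 0.0152). The ranges of this ratio overlapped slightly, at -3.19 to -2.67 and -3.99 to -3.10.

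For the other 5 pairs, the difference in the paralogue's ratio to its namesake did not pass the same exact permutation test. Rpl22l1, whose transcript is restrained by Rpl22, was at 11.8 to 20.1 CPM in mild-hypo-OPCs (median 14.8) and 19.5 to 59.5 CPM in standard OPCs (median 39.6). Rpl22 itself was at 45.8 to 87.6 CPM (median 65.4) and 69.6 to 216 CPM (median 172). Both genes were lower, at -1.30 and -1.20, and their log2 ratio differed by -0.14 (adjusted p = 0.75 over 7 ratios, exact permutation test). Rpl37l1 against Rpl37 differed by -0.25 (adjusted p = 0.157, exact permutation test), with log2 fold changes of -1.32 and -1.09. Rps10l1 and Rps10 (-0.98 and -0.96), Rpl30l2 and Rpl30 (-1.06 and -1.10), and Rpl31l4 and Rpl31 (-1.05 and -1.04) had differences in ratio between -0.05 and 0.06. Reads of such near-identical copies can be shared between rows, and these values are uncertain to that extent. Rps18l1 (-1.01) had no row of its namesake beside it.

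Rpl7l1, a nucleolar relative of Rpl7 that acts in ribosome assembly, had the smallest change of the members tested. Its level was 110 to 132 CPM in mild-hypo-OPCs (median 116) and 120 to 177 CPM in standard OPCs (median 145), with 1 standard OPC library, replicate 4, inside the mild-hypo-OPC range. The log2 fold change was -0.30 ± 0.09 (SE, edgeR adjusted p = 0.0177). Its call was lost when mild-hypo-OPC replicate 1, 2, 3 or 5 was left out. The log2 fold change was then -0.27 to -0.25, with edgeR adjusted p from 0.0613 to 0.0712.

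The 9 members below the filter had at most 61 counts over all 12 libraries. These were Rpl10l (61), the paralogue Rpl39l (29), Rps12l2 (23), Rps12l4 (8), Rpl38 (4), Rps12l3 (3), Rpl3l, a form of skeletal and heart muscle (1), Rpl30l1 (1) and Rps19l1 (0). Rpl38 is the only standard ribosomal protein among them, and its row held 4 counts in all. Whether so low a count reflects the level of Rpl38 in these cells was not tested. Rps19 and Rpl10, the namesakes of a pair of these paralogues, were called lower at -0.95 and -0.79, as was Rps12 at -0.92.

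Of the rows not kept for a repeated symbol, 3 passed the filter and were also called lower. The second Rpl22 row, with 3868 counts against 3873 for the row kept, was at -0.98 beside -1.20. The second Rpl35a row (729 counts) was at -1.07 beside -1.25, and the second Rps13 row (258 counts) at -1.25 beside -0.96. For Rpl21 the row not kept had 5 counts, and for Rpl30 and Rps6 it had 0. Rows with a -ps suffix, 71 in number and 20 of them tested, were all called lower among those tested, with a median of -0.997. Adding their counts to the gene of the same symbol gave a median of -0.95 over 78 members tested, all called lower.

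The sequence at the annotated transcription start was read for the members with an entry among RefSeq promoters (GRCr8), 64 of the 86. The TOP tract begins at the start site, so 30 bases centred on it, 15 before and 15 after, were searched for CTTTCC or CTTTTC on the transcribed strand and on the opposite strand. Over all promoter entries of the members, including any alternative entries that were not searched, 31 start at the outermost end of the annotated gene. How many of the 64 searched entries do so was not counted. Below are the 3 lowest and the 3 highest members with an entry, with Rplp1 as the lowest stalk protein, and capitals mark the motif.
Rps14, chr18:56498245-56498274, plus strand: cccttccgtctctctCTTTCCggtggagga
Rpl9, chr14:43247575-43247604, plus strand: gacgaaggacgttctctctttgccccatct
Rps27, chr2:177964592-177964621, minus strand: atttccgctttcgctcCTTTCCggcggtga
Rplp1, chr8:71290858-71290887, minus strand: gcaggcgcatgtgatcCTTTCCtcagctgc
Rpl3, chr7:113507976-113508005, minus strand: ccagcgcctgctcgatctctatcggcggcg
Rpl6, chr12:41011676-41011705, minus strand: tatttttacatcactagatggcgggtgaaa
Rpl7l1, chr9:21695703-21695732, plus strand: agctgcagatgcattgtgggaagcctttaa

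One of these motifs was present on the transcribed strand in 22 of the 64 members (34.4%) and in 2.30% of all 27457 RefSeq promoters. On the opposite strand it was found in 0 members and in 2.31% of all promoters. Among the members tested, the median log2 fold change was -0.95 in the 22 with the motif and -0.93 in the 37 without it. Among the other genes tested with an entry, it was -0.04 in the 166 with the motif, 22.3% of which were called lower, and 0.0035 in the 6876 without it, 15.3% of which were called lower. Over the whole 300-base entry, CCGGAA, the core of the ETS motif, which on the opposite strand can share bases with CTTTCC, was found on either strand in 29 of the 64 members (45.3%) and in 15.8% of all promoters. Other genes tested held it more often than all promoters did, at 30.8%, beside 47.5% of the members tested. AAGATGGC, part of the YY1 motif, was found in 7 members (10.9%) and in 3.44% of all promoters, and in 6.56% of the other genes tested beside 10.2% of the members tested. A match is a description of letters at an annotated start and not a measured start or binding site.

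Lower levels were also found in other lists of protein complex genes. Of 73 tested genes for proteins of the mitochondrial ribosome, 48 were called lower and 0 higher, with a median of -0.51, and of 32 tested proteasome subunit genes, 20 were called lower and 0 higher, with a median of -0.35. Lists of genes that build or regulate ribosomes had medians closer to that of all genes, of which 17.0% were called lower and 7.00% higher. Of 102 tested ribosome biogenesis genes, such as nucleolar assembly factors, 16 were called lower and 1 higher, with a median of -0.06, so the share called lower was just under that over all genes. The 3 called with the largest change were the assembly ATPase Mdn1 (-0.65), the small-subunit processome protein Utp18 (-0.62) and the nucleolar GTPase Gnl3 (-0.56). Of 11 tested genes of RNA polymerase I, which transcribes ribosomal RNA, 2 were called lower, namely Taf1d (-1.08) and Polr1d (-0.79), a subunit shared with RNA polymerase III. Other mRNAs known to carry a TOP tract were mixed. Of 19 tested, 11 were called lower and 2 higher, with a median of -0.28, led by the translationally controlled tumour protein Tpt1 (-0.90), the elongation factor subunit Eef1b2 (-0.85) and the nascent-chain binding Naca (-0.75). The elongation factors Eef1a1 and Eef2, both TOP mRNAs, were at -0.28 and 0.04, and only the former was called.

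Of 23 tested genes of TOP control, 3 were called lower and 1 higher, both smaller shares than the 17.0% and 7.00% over all genes tested. The mTORC1 activator Rheb (-0.67), the cap-binding protein Eif4e (-0.54) and Cnbp (-0.47), a protein that binds TOP mRNAs, were lower. The one called higher was Eif4ebp2 (0.26, edgeR adjusted p = 0.0399), a repressor of Eif4e. Mtor was at 0.26 (edgeR adjusted p = 0.0535) and Larp1 at 0.08 (edgeR adjusted p = 0.701).

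**Figure D4:**
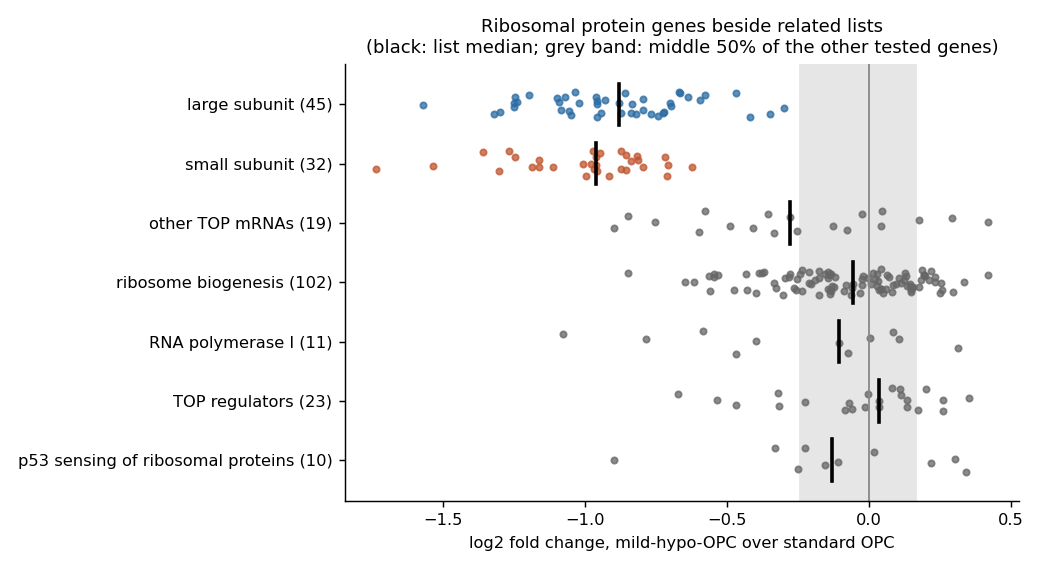
Log2 fold change (mild-hypo-OPC over standard OPC, horizontal axis) of each tested gene in the large and small subunit and in 5 related lists, with the number of genes in brackets, a black line at each list's median and a grey band over the middle 50% of the other genes tested. The subunit medians of -0.88 and -0.96 lie outside the band, and the medians of ribosome biogenesis and RNA polymerase I genes, at -0.06 and -0.11, lie inside it.

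Ribosomal protein genes are short, and short genes had lower log2 fold changes throughout the table. The annotated gene span (GRCr8, matched by symbol) had a median of 3129 bases over the 76 members with a span and 25892 bases over 8468 other genes tested. Among other genes with a span under 2 kb, the median log2 fold change was -0.46 and 50.9% were called lower, and among those of 16 kb or more it was 0.05 and 8.19%. At the same span the members lay lower, at -1.11 in 13 members under 2 kb and -0.88 in 41 members of 2 to 4 kb, where 451 other genes were at -0.30. With the trend on span among the other genes subtracted, an alternative chosen after seeing the data, the members' median was -0.61. Spearman's rho between span and log2 fold change was 0.20 over the 76 members and 0.29 over the other genes, as descriptions across genes, which are not independent replicates. The longest span among the members, 893235 bases for Rpl29, was far above the next, 16173 bases for Rpl3. Both are included in these values. The part of transcript length in the result was not tested otherwise, since spans include introns. Level showed no such trend among other genes, whose median lay between -0.03 and 0.01 in every class of mean level, including the 279 and 46 genes in the highest pair of classes, which hold 44 and 4 members. Among the members, the median was -1.16 in the 9 with a mean level of 4 to 6 log2 CPM. It was -0.87 in each of the highest pair of classes. Spearman's rho between level and log2 fold change over the members was 0.32.

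**Figure D5:**
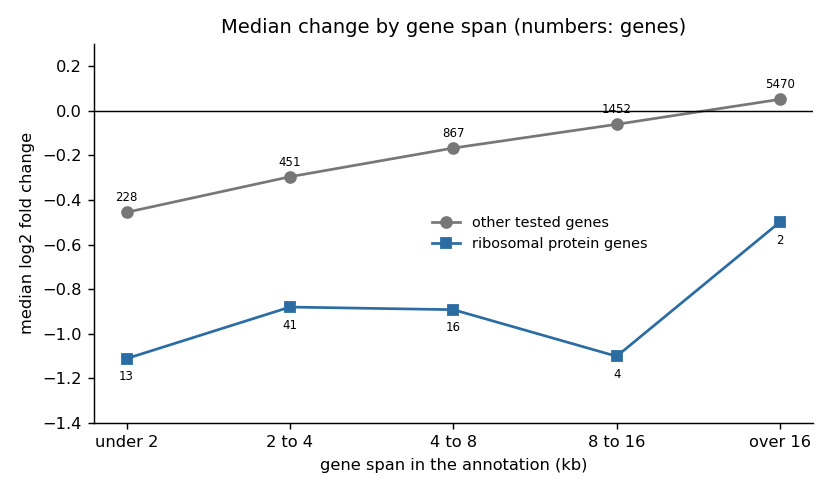
Median log2 fold change (mild-hypo-OPC over standard OPC, vertical axis) of ribosomal protein genes and of the other genes tested, in 5 classes of annotated gene span in kb (horizontal axis), with the number of genes beside each point. The other genes rise from -0.46 to 0.05 with span, and the members lie below them in every class, with only 4 and 2 members in the classes of the longest genes. The 2 in the longest class are Rpl3 and Rpl29.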

How the data were processed

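Bulk RNA-seq was done on 6 mild-hypo-OPC and 6 standard OPC libraries, grouped by the sample titles. By the submitters' processing notes and the methods, strand-specific reads were trimmed (Trimmomatic 0.36), checked (FastQC 0.11.9), aligned to mRatBN7.2 (STAR 2.7.9a) and quantified per Ensembl gene (RSEM 1.3.3). The authors deposited whole-number counts without normalization, and how RSEM's estimates were made whole is not given in the sources used here. The use of strand in counting is not stated either.

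From these counts, 8938 genes exceeded a CPM of 10 in 1 library or more and were tested. Libraries were scaled by TMM, and edgeR 4.0.16 (R 4.3.3) was run as glmQLFit and glmQLFTest on the condition alone, with p-values adjusted by Benjamini-Hochberg and a threshold of 0.05. The SE is the one implied by the F statistic. CPM values are TMM-scaled unless called shares. Ratios within libraries (pseudocount 0.5 counts for paralogues) were compared by exact permutation tests in SciPy. limma 3.58.1 and DESeq2 1.42.0 served as alternatives. Total counts of 1356079 to 9022324 per library bound the precision, and errors do not cover the unequal depth of the groups. Named genes were, within each subunit, the 5 lowest and 5 highest tested, the stalk proteins, Rpl5, Rpl11, Rpsa, paralogues with their namesakes, Fau and Rack1, members not tested, repeated rows, and the 3 called genes with the largest change per related list. Some genes that this rule names are not reported here. Other genes were named after their values were seen. Members and lists were chosen with earlier results of these data known. Sequences, spans and starts came from RefSeq tables (GRCr8), matched by symbol. On simulated counts with 196 changed genes among 8720 tested, the test recovered 191 with 9 false calls. The simulated libraries were independent, and the planted changes were balanced in direction and as large as or larger than those of most members. The simulation therefore does not cover smaller or one-sided changes, shared cultures or an effect of depth. No columns were unused.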

Additional observations from a re-analysis of the deposited data

Results flagged for a closer look

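Among the named genes and the summed measures, 138 groups of 6 libraries were searched for a library whose distance to its nearest neighbour exceeded Dixon's 95% critical value, and 3 were found, where chance gives about 1 in 20. Rpl6 stood at 313 CPM in replicate 1 of mild-hypo-OPCs, below the 337 to 348 CPM of the other mild-hypo-OPC libraries. The biogenesis gene Utp18 stood at 10.01 CPM in the same library, below 11.1 to 11.7 CPM in the others. Eif4e stood at 246 CPM in replicate 5 of standard OPCs, above 150 to 185 CPM in the others. Mild-hypo-OPC replicate 1 is the deepest library. Without it the log2 fold change of Rpl6 was -0.29 (edgeR adjusted p = 0.0198). The standard OPC replicates 1 and 2, which lay apart from the other four in many members, form a pair and cannot be found by this search.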

How the results depend on the processing

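The count of 77 members called lower and 0 called higher, and the median of -0.95, were recomputed with DESeq2, limma-voom, upper-quartile factors, TMM factors set without ribosomal protein rows, removal of ribosomal RNA rows, 3 other low-count filters, a block for the replicate number, thinning to the smallest total, pseudogene or repeated rows added, and each library left out. Under these the median lay between -1.05 and -0.85, and 76 to 78 members were called lower. Leaving out 1 library each gave 76 to 77 called lower, a median of -1.05 to -0.85, and subunit medians of -0.98 to -0.79 (large) and -1.06 to -0.86 (small). Of the 40 named members, Rpl7l1 lost its call under upper-quartile factors (adjusted p = 0.0577), without a filter (0.0503) and after thinning (0.0881), and no other named member lost it in these alternatives. On the 69 standard ribosomal proteins alone, all 69 were called lower.

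With libraries scaled by total count only, the medians were -0.50 for all members, -0.43 for the large and -0.52 for the small subunit. Called lower were 61 of the 77 members, where 405 of all 8938 genes tested were called lower and 5515 higher. Among the named genes, Rpl3 (0.0211), Rpl6 (0.0931), Rpl7l1 (0.14) and Mdm2 (0.11) turned sign. With the gene-span trend removed, chosen after seeing the data, the median was -0.61. With the log2 total count as a covariate, 0 members were called, where 43 genes were called lower and 0 higher in all and 488 and 217 had an unadjusted p under 0.05. The medians were then -0.0354 over all members, -0.0498 for the large and -0.0209 for the small subunit, and 45 of the 77 were below 0. The remaining 32 were above 0, and they include members outside the named genes, which are not listed here. Among the named genes, the fold changes that turned sign were those of Rpl9 (0.57), Rpl35a (0.22), Rpl8 (0.33), Rpl3 (0.0539), Rps15a (0.0598), Rps3a (0.16), Rps23 (0.0179), Rps2 (0.18), Rps4x (0.0058), Rplp0 (0.0871), Rplp2 (0.17), Rpsa (0.0019), Rpl30l2 (0.0730), Rps10 (0.0220), Rpl22 (0.28), Rps19 (0.0645), Rps12 (0.14), Rpl37 (0.19), Rack1 (0.15), Rheb (0.0399), Tpt1 (0.0797), Eef1b2 (0.0511) and Zmat3 (-0.11), none of them called. The cause was not tested.

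The labels do not say whether replicate numbers pair the libraries, and the correlations between libraries cannot decide it. Deviations of same-numbered libraries correlated at -0.28 to 0.30, over 0.1 in 2 of 6 pairs, and 1 library correlated best with its own number. With the replicate block, 77 members were called lower with a median of -0.91.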
